A study of Mus musculus with 32 samples.

Results

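The genes of the carnitine shuttle were followed through pregnancy, lactation, 3 levels of dietary fat and a comparison with liver in FVB mice. The 4 genes were Cpt1a, Cpt2, Slc25a20 and Crat, and every probe set that the array annotation ties to only one of them was taken, which gave 6 of the 12422 probe sets on the array without its controls, for 4 of the 8251 genes with a probe set of their own. Transcripts of the 3 genes that carry long-chain acyl groups into mitochondria fell as the gland became secretory, Cpt1a by 20.2-fold (8.77-fold with 16 added to every intensity; its lactation level is dim), Cpt2 by 4.90-fold and Slc25a20 by 3.53-fold between pregnancy day 12 and lactation day 9. Cpt2 is read here from its brighter probe set, and its other, dim one was called 2.67-fold higher (1.75-fold with 16 added). Crat fell by 1.62-fold over the same span, a call that 2 of the scalings tried do not keep. In liver Slc25a20 and Cpt2 (brighter probe set) were 12.98-fold and 6.49-fold above their mammary levels and Cpt1a was 24.9-fold above a dim one (13.1-fold with 16 added). Crat was 1.86-fold below, a direction that turns when ribosomal protein probe sets are set equal between arrays.

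Wild-type FVB mice were used throughout, so the groups differ in stage, diet or tissue and carry no mutation or transgene. On standard chow the mammary gland was sampled on pregnancy days 12 and 17 and on lactation days 1, 2 and 9, with 4 arrays for each stage. Other dams ate chow until lactation day 5 and then a diet with 8% or 40% of its energy from soy oil for 5 days; their mammary glands were taken on lactation day 10, with 3 arrays for each diet, and 3 liver arrays came from the 8% diet. A further 3 mammary arrays are titled 16% dietary fat, and the labels give neither their day nor how that diet was fed. Titles and descriptions disagree on the diet of the 8% and 16% mammary arrays, and these groups follow the titles. Each array holds RNA of whole tissue lysed as an individual sample, and the p-values measure the spread between such samples. In whole tissue, fewer cells of a type and less RNA per cell cannot be told apart.

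Long-chain fatty acids activated to acyl-CoA cannot cross the inner mitochondrial membrane. CPT1, in the outer membrane, moves the acyl group from CoA to carnitine, and Cpt1a encodes the form found in liver and many other tissues. This step is inhibited by malonyl-CoA, the first intermediate of fatty acid synthesis. The carrier Slc25a20, also called CACT, exchanges acylcarnitine for free carnitine across the inner membrane, and CPT2, on its matrix side, returns the acyl group to CoA for beta oxidation. Crat encodes carnitine acetyltransferase, which works on acetyl and other short acyl groups and so links the carnitine pool to acetyl-CoA and not to long-chain import. The lactating mammary gland is known for a high rate of fatty acid synthesis, and the liver for both synthesis and oxidation.

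The promoters of the 3 genes that fell together are shown to let a reader see what sequence they have in common just before their start sites. Each holds the 250 bases upstream of the RefSeq start (mouse GRCm38.p6), written 5′ to 3′ on the strand of the gene, at chr19:3323051-3323300 (plus strand) for Cpt1a, chr4:107923590-107923839 (minus strand) for Cpt2 and chr9:108661886-108662135 (plus strand) for Slc25a20. Capitals mark matches on either strand to the motifs named in the next paragraph. Crat had no entry among the promoter sequences used, so its window is not shown and was not compared.
Cpt1a: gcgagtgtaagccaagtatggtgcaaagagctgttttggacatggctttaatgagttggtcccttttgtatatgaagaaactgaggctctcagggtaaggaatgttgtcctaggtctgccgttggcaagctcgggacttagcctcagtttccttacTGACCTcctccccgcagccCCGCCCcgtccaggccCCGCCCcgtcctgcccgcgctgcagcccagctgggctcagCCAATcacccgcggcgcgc
Cpt2: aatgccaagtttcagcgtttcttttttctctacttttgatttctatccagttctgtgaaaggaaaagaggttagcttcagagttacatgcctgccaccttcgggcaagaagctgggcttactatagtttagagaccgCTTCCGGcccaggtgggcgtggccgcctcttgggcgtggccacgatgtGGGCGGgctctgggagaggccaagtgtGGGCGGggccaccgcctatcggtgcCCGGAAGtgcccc
Slc25a20: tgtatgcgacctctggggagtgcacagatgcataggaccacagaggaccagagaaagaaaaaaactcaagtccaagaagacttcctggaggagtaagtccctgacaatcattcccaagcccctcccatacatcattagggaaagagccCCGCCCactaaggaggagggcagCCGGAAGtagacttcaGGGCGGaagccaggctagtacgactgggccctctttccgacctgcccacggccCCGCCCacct

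All 3 windows held the GC box, GGGCGG, the letters bound by Sp1-type factors: 2 matches in Cpt1a, 2 in Cpt2 and 3 in Slc25a20. Of the 32851 mouse promoter windows of the same length, 32.7% held it. The letters of an ETS site, CCGGAAG, were found 2 times in Cpt2 and 1 time in Slc25a20, against 6.91% of all windows, and not in Cpt1a. Cpt1a in turn held 1 CCAAT (33.8% of windows) and 1 AGGTCA, the core site of many nuclear receptors (14% of windows), neither of which was in the other two. No window held TATAAA (12.4% of windows) or the direct repeat of that core with a 1-base spacer (0.0335% of windows). AGGTCA is part of the direct repeat; the other motifs share no letters with each other in these windows. All were chosen with the sequences in view. The windows held 14, 13 and 8 CpG in Cpt1a, Cpt2 and Slc25a20, against a median of 6 over all windows, and their GC content was 59.6%, 56.8% and 56.8% against 52.4%. A match describes these letters only.

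Values are log2 of the deposited probe-set intensity, so a difference of 1 is a doubling; levels of different probe sets are not set against each other. Testing took in the probe sets with at least one group mean, among the groups of that fit, on or above the median of the whole table, 18.6 in intensity or 4.22 in log2 (the filter line). Tests used limma, with Benjamini-Hochberg adjustment over all probe sets tested, and a change is called where the adjusted p is under 0.05. Cpt1a, Slc25a20 and the brighter Cpt2 and Crat probe sets were tested in the stage series. The second Crat probe set lay between 2.93 and 3.69 in every array of all 9 groups, below the line throughout, and was tested in no comparison. The second Cpt2 probe set is dim and is described apart from the first.

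**Figure D1:**
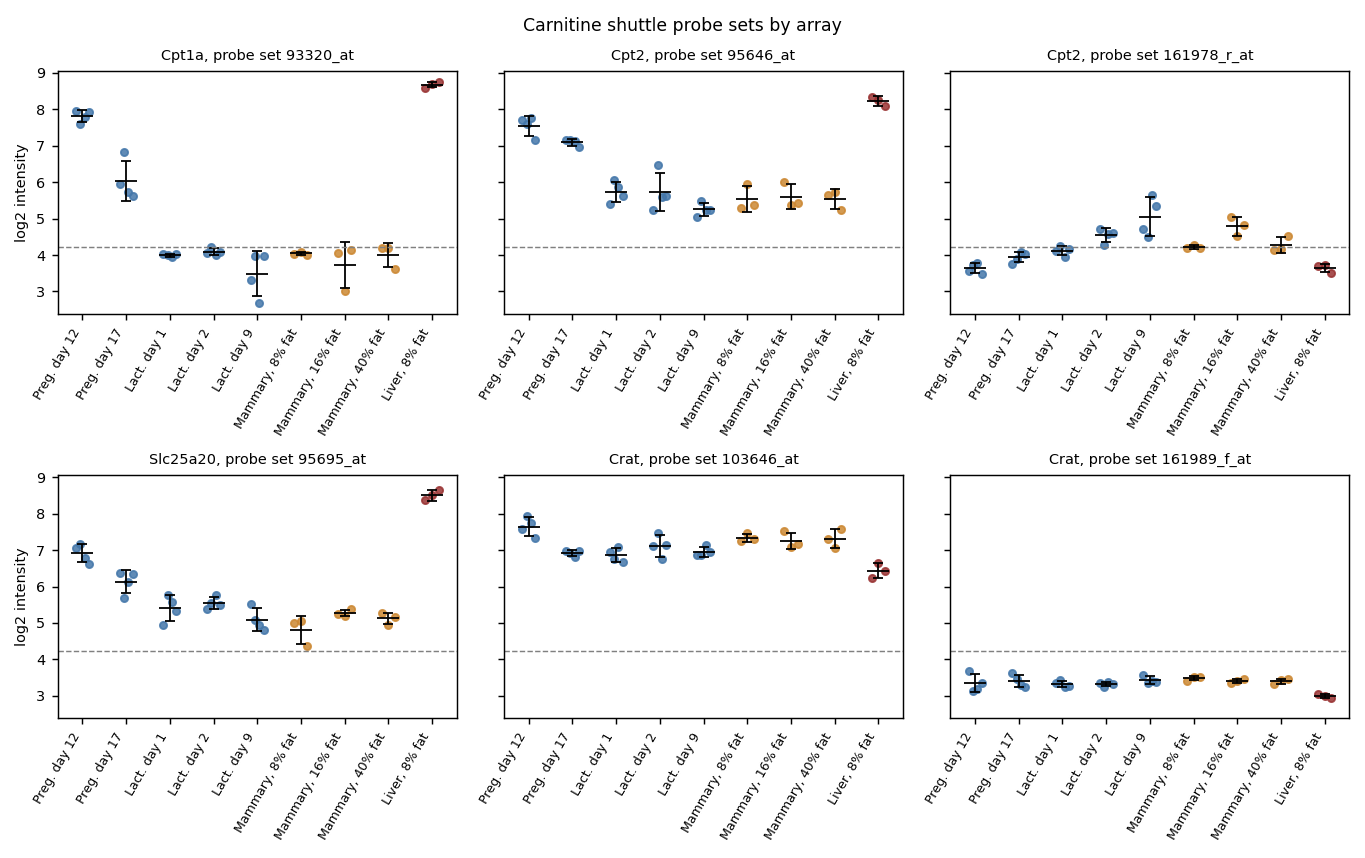
Log2 probe-set intensity (y axis) of the 6 carnitine shuttle probe sets in each array, by group (x axis); a point is 1 array, the long bar is the group mean, the error bar is the SD, and the dashed line is the filter line at 4.22. Cpt1a, Slc25a20 and the bright Cpt2 probe set step down from pregnancy day 12 to lactation and are highest in liver. The bright Crat probe set lies between 6.23 and 7.93 in all arrays. It is lower on pregnancy day 17 than on day 12 (a change of -0.72) and lowest in liver.

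Cpt1a, the gene of the entry step, had the largest change of the 4. Its levels on pregnancy day 12 were 7.97, 7.61, 7.80 and 7.91. On pregnancy day 17 they were 5.95, 6.84, 5.73 and 5.61, with replicate 2 above the others. All 4 day 17 arrays lay below all 4 day 12 arrays. Cpt1a fell by 1.79 (SE 0.25), or 3.46-fold (limma, adjusted p = 1.19e-05).

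On lactation day 1 Cpt1a read 4.03, 3.99, 3.94 and 4.03, all below the filter line and below every pregnancy array. The step from pregnancy day 17 to lactation day 1 fell by 2.03 (SE 0.25, adjusted p = 6.98e-06), or 4.10-fold. On lactation day 2 the levels were 4.06, 4.22, 4.0 and 4.09. They overlapped those of day 1, and the difference of 0.10 was not called (adjusted p = 0.816). On lactation day 9 they were 3.31, 3.98, 2.69 and 3.97, a wider spread at a dim level, and the difference from day 2 of -0.61 was not called (adjusted p = 0.0818). It passed with quantile normalization (-0.71, adjusted p = 0.0437) and without lactation day 9 replicate 2 or 4 or pregnancy day 17 replicate 2, at adjusted p of 0.0323 to 0.0393. From pregnancy day 12 to lactation day 9 Cpt1a fell by 4.34 on the log2 scale (SE 0.25, adjusted p = 2.11e-11). Because the lactation values lie below the filter line, their order among themselves is not read, and the size of the fold depends on how dim values are treated: with 16 added to every intensity the change was -3.13.

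Cpt2 encodes the matrix-side acyltransferase. Its bright probe set read 7.70, 7.60, 7.77 and 7.15 on pregnancy day 12. On pregnancy day 17 it read 7.15, 7.15, 7.14 and 6.96, just overlapping the lowest day 12 array. The change of -0.45 (SE 0.20) within pregnancy was not called (adjusted p = 0.0767). It passed at 0.0369 with only the 2 groups compared in the fit, at 0.0395 with a replicate block, and with either pregnancy day 12 replicate 4 or lactation day 2 replicate 2 left out, at a lowest adjusted p of 0.0243.

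The step from pregnancy day 17 to lactation day 1 was clear for Cpt2. On lactation day 1 the levels were 5.40, 6.05, 5.86 and 5.62, all below the pregnancy arrays. The fall was 1.37 (a change of -1.37, SE 0.20, adjusted p = 6.51e-05), or 2.58-fold. On lactation day 2 they were 5.23, 6.47, 5.61 and 5.62, with replicate 2 highest, and the mean was within 0.01 of that of day 1 (95% interval of the difference -0.43 to 0.42). On lactation day 9 they were 5.06, 5.49, 5.24 and 5.25, and the difference from day 2 of -0.47 was not called (adjusted p = 0.0986; 0.0285 without lactation day 2 replicate 1). Cpt2 was lower on lactation day 9 than on pregnancy day 12 by 2.29 (a change of -2.29, SE 0.20, adjusted p = 8.58e-09).

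The other Cpt2 probe set gave another pattern at a dim level. It read 3.57, 3.74, 3.77 and 3.47 on pregnancy day 12 and 3.76, 3.90, 4.08 and 4.02 on day 17. It read 4.12, 4.24, 3.95 and 4.16 on lactation day 1, then 4.72, 4.28, 4.58 and 4.62 on day 2. On lactation day 9 it read 4.71, 4.51, 5.66 and 5.35, above all pregnancy arrays. It was called higher on lactation day 9 than on pregnancy day 12 by 1.42 (SE 0.18, adjusted p = 1.15e-06), where the bright probe set was lower. With 16 added to every intensity the change was 0.81. Its means on pregnancy days 12 and 17 and lactation day 1 were below the filter line. It entered the test only through lactation days 2 and 9, the stages where it is high. The 2 probe sets of Cpt2 therefore disagree in sign; over the means of the 8 mammary groups they correlated at r = -0.80. Statements on Cpt2 here rest on the bright probe set, which was above the filter line in all 9 groups.

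Slc25a20, the carrier between the 2 acyltransferases, read 7.05, 7.17, 6.79 and 6.63 on pregnancy day 12. On pregnancy day 17 it read 6.37, 5.69, 6.13 and 6.35, below all day 12 arrays. It fell by 0.77 (a change of -0.77, SE 0.19, adjusted p = 0.00288), or 1.71-fold. On lactation day 1 the levels were 4.94, 5.77, 5.58 and 5.33, overlapping those of pregnancy day 17 through 1 array of each group. The change of -0.73 (SE 0.19) was called (adjusted p = 0.00794), and it was -0.40 with an adjusted p of 0.117 where the ribosomal protein probe sets of each array were set equal.

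No change of Slc25a20 within lactation was called. On lactation day 2 the levels were 5.38, 5.54, 5.75 and 5.50 and on day 9 they were 5.53, 5.07, 4.95 and 4.81. The change from day 2 to day 9 of -0.45 was not called (adjusted p = 0.0896); it passed without lactation day 9 replicate 1 (-0.60, adjusted p = 0.0307) and with array medians set equal (-0.54, adjusted p = 0.0485). Between pregnancy day 12 and lactation day 9 the arrays did not overlap, and Slc25a20 fell by 1.82 (a change of -1.82, SE 0.19, adjusted p = 7.23e-08).

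Crat, the short-chain enzyme, moved within pregnancy. Its bright probe set read 7.59, 7.93, 7.73 and 7.34 on pregnancy day 12. On pregnancy day 17 it read 6.99, 6.92, 6.80 and 6.99, all below the day 12 arrays. It fell by 0.72 (a change of -0.72, SE 0.14, adjusted p = 0.00049), or 1.65-fold. On lactation day 1 it read 6.94, 6.77, 7.10 and 6.66, overlapping pregnancy day 17, and the difference from day 17 was -0.06 (95% interval -0.36 to 0.24, adjusted p = 0.793).

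On lactation day 2 Crat read 7.12, 7.46, 6.74 and 7.13 and on day 9 it read 6.85, 6.87, 7.14 and 6.96. The difference between lactation day 9 and pregnancy day 17 was 0.03 (95% interval -0.27 to 0.33, adjusted p = 0.862); it was -0.23 with array medians set equal, 0.37 with quantile normalization (adjusted p = 0.0333) and 0.47 (adjusted p = 0.0179) when the ribosomal protein medians were equalized. Crat on lactation day 9 was below pregnancy day 12 by 0.69 (a change of -0.69, SE 0.14, adjusted p = 0.000217), a call that was lost with quantile normalization (-0.20, adjusted p = 0.201) and with that ribosomal scaling (-0.17, adjusted p = 0.359).

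The counts of members stand against a table in which much of the array moved. Between pregnancy days 12 and 17, 3 of the 5 member probe sets tested were called, all lower, where 45.1% of all probe sets tested were called and 26.7% were lower. The groups did not overlap in those 3, and in 37.6% of all. From pregnancy day 17 to lactation day 1 the count was again 3 of 5, all lower, against 23.3% called and 14% lower in all. Cpt1a and Cpt2 did not overlap between these stages, and 24.4% of all probe sets did not. For lactation day 2 against pregnancy day 17, 3 were lower and the dim Cpt2 probe set was higher by 0.61 (adjusted p = 0.011), against 49.9% called, with 24.5% of all tested lower and 25.5% higher. In both lactation day 1 and day 2, Cpt1a, Cpt2 and Slc25a20 were the ones lower than on pregnancy day 17, with Slc25a20 at -0.59 on day 2 (adjusted p = 0.0152). That call was lost with quantile normalization (-0.46, adjusted p = 0.0658), with the ribosomal scaling (-0.17, adjusted p = 0.487) and without pregnancy day 17 replicate 1 (-0.51, adjusted p = 0.0516). The call of the dim Cpt2 probe set was lost with quantile normalization (0.47, adjusted p = 0.0677).

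Within lactation no member was called, between days 1 and 2 where 14.3% of probe sets were called, or between days 2 and 9 where 25% were. Between pregnancy day 17 and lactation day 9, 3 were lower and 1 higher of 5, against 64% called (31.9% lower, 32.2% higher). Between pregnancy day 12 and lactation day 9, 4 were lower and 1 higher, against 77.6% called (42.4% lower, 35.2% higher); the groups did not overlap in all 5, and in 69.8% of all probe sets. All 5 were called in the test of any change over the 5 stages, as were 87.5% of all probe sets, so that count says little about these genes. From pregnancy day 12 to lactation day 9, 0.264% of the probe sets tested had a change at or below that of Cpt1a, 4.48% at or below that of Cpt2, 7.87% at or below that of Slc25a20 and 31.5% at or below that of Crat. The median change over the 4 genes was -2.06, against -0.13 over all probe sets.

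**Figure D2:**
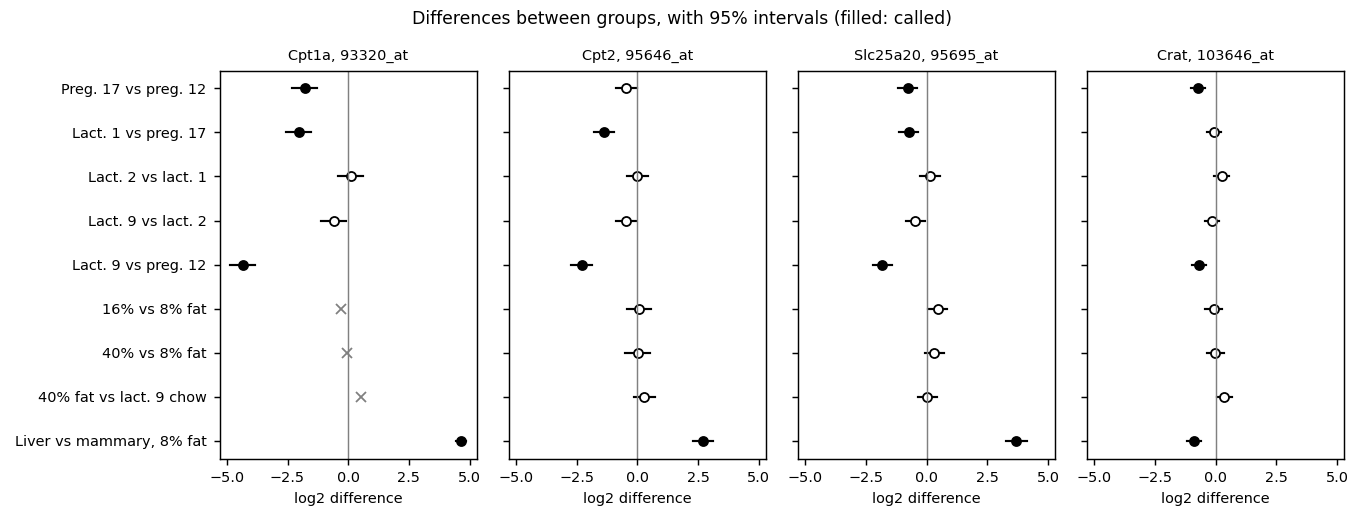
Differences in log2 intensity (x axis) for the 4 genes in 9 comparisons (y axis), with 95% intervals from limma; filled points were called, open points were tested and not called, and grey crosses were below the filter line in both groups and not tested. The called points lie at the stage steps and at liver against mammary gland, and no diet point is filled.

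Whether Crat and the other genes changed unequally can be read within each array, where a scaling factor common to the array cancels. Relative to pregnancy day 12, the log2 difference Crat minus Cpt1a was higher by 1.07 on pregnancy day 17, by 3.04 on lactation day 1 and by 3.64 on lactation day 9. Crat minus Cpt2 was -0.27, 1.04 and 1.60 at the same stages. Crat minus Slc25a20 was 0.05, 0.72 and 1.13. The means for Cpt2 and Slc25a20 were thus near 0 on pregnancy day 17 and above it from lactation day 1 on.

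From pregnancy day 17 to lactation day 9 the within-array difference rose by 2.58 for Cpt1a, 1.87 for Cpt2 and 1.08 for Slc25a20, and no array of one stage overlapped the other (n = 4 and 4). Each gave p = 0.0286 in a two-sided exact permutation test, the smallest that 4 against 4 arrays allow, and 0.0515 after adjustment over the 18 such tests made (exact permutation). The adjusted values miss 0.05. Leaving out any one array kept these differences between 0.97 and 2.77. The Cpt1a values of lactation lie below the filter line, so the size of its difference depends on how dim values are treated. With 16 added to every intensity, the change from pregnancy day 17 to lactation day 9 was -1.57 for Cpt1a and -1.50 for Cpt2. It was -0.78 for Slc25a20 and 0.03 for Crat. From pregnancy day 12 to day 17 the groups overlapped for all 3 genes, at exact permutation p = 0.0571, 0.114 and 0.8 for Cpt1a, Cpt2 and Slc25a20. These tests were chosen after the levels were seen.

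**Figure D3:**
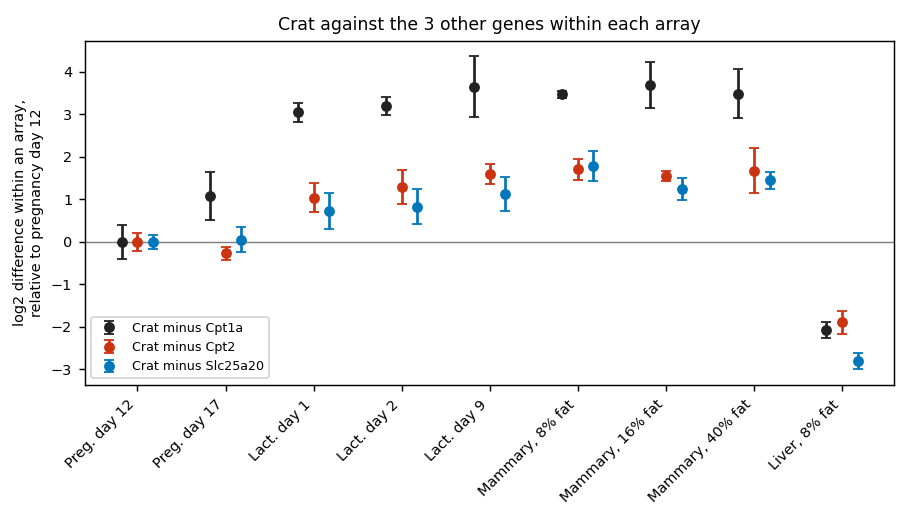
Within-array log2 difference between Crat and each of Cpt1a, Cpt2 and Slc25a20 (brightest probe set of each), shown relative to its mean on pregnancy day 12 (y axis) for the 9 groups (x axis); points are means and bars the SD over 3 or 4 arrays. The differences lie above 0 in all lactation and diet groups of the mammary gland, at 0.72 to 3.69, and below 0 in liver, at -1.89 to -2.80. In those lactation and diet groups Cpt1a is below the filter line, so the size of its difference there depends on how dim values are treated.

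Markers of cell types moved over the same stages. The summed intensity of 9 adipocyte markers was 7576 to 11996 on pregnancy day 12, 3942 to 4854 on day 17, 2358 to 4782 on lactation day 1, 1884 to 3030 on day 2 and 1240 to 1986 on day 9, with none of the 9 below the filter line in any mammary group. Of these 9, 7 were called lower from pregnancy day 12 to 17, 2 from pregnancy day 17 to lactation day 1, and all 9 from pregnancy day 12 to lactation day 9, at a median change of -2.36; of all probe sets tested, 26.7%, 14% and 42.4% were lower in these comparisons. The 8 fibroblast markers went from 14626 to 17549 on pregnancy day 12 to 1353 to 4269 on lactation day 9, and all 8 were lower. The 8 macrophage markers went from 1769 to 2669 to 805 to 1285, and of 7 tested, 6 were lower and 1 higher. Epithelial lists other than the milk genes fell too. The 8 luminal epithelium markers summed to 6655 to 7390 on pregnancy day 17 and to 4129 to 4667 on lactation day 9, with 7 lower and 1 higher at a median change of -1.98. The myoepithelium list went from 3382 to 4228 to 793 to 1360 over the same step, and all 4 of its tested members were lower, at a median of -1.63; Krt5 and Krt14 were below the filter line in every group. In that step 31.9% of all probe sets tested were lower and 32.2% higher. Against pregnancy day 12, 5 luminal markers were lower, 1 was higher and 2 were not called, at a median of -1.69. All 4 tested myoepithelium markers were lower against that day as well, at a median of -1.30. From pregnancy day 17 to lactation day 1, where Cpt1a and Cpt2 fell, 6 of 8 luminal and 3 of 4 myoepithelium markers were lower. Of all probe sets tested, 14% were. The part of these lists in the falls of Cpt1a, Cpt2 and Slc25a20 was not tested.

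The 6 milk genes that mark secretory epithelium rose over the same span, from a sum of 87372 to 117230 on pregnancy day 12 to 201027 to 218332 on lactation day 9. None of the 6 was below the filter line at any mammary stage. All 8 skeletal muscle markers were below the filter line on pregnancy days 12 and 17 and lactation day 1. The sum of the 6 brown adipocyte markers was 306 to 480 on pregnancy day 12 and 11060 to 12981 on lactation day 9, but the median change of the 5 tested was 0.46, with 3 higher and 2 not called. Of all probe sets tested, 35.2% were higher in that comparison. Cox7a1 was below the line through lactation day 1 and Dio2 in every group.

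**Figure D4:**
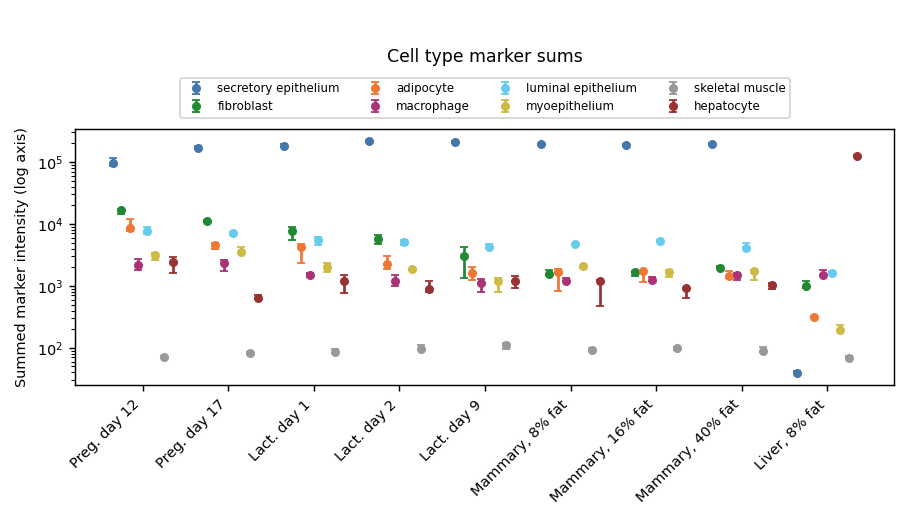
Summed intensity of 8 marker lists (log y axis) in the 9 groups (x axis); points are the median array and bars run from the lowest to the highest array. Adipocyte, fibroblast and luminal sums decline from pregnancy day 12 to lactation day 9 while the secretory sum rises, and the hepatocyte sum is 120471 to 128471 in liver against at most 2914 in mammary gland.

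The enzymes that use the imported acyl-CoA were lower in lactation as well. Of 16 listed genes of mitochondrial beta oxidation, 13 were tested, and 9 were lower and 0 higher on pregnancy day 17 than on day 12, at a median of -0.53 against -0.02 over all probe sets, of which 26.7% were lower. Decr1 (2,4-dienoyl-CoA reductase, needed for unsaturated chains) changed by -1.23 (adjusted p = 4.66e-05), Etfdh (electron transfer flavoprotein dehydrogenase) by -1.07 and Etfa by -0.92. Acadm, the medium-chain acyl-CoA dehydrogenase, was at -0.34 and Hadh at -0.28, and neither was called. From pregnancy day 17 to lactation day 1, 8 of the 13 were lower and 0 higher, at a median of -0.71, where 14% of all were lower.

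On lactation day 2, 9 of the 13 were lower than on pregnancy day 17 and 0 were higher, at a median of -0.70 against 0.04, where 24.5% of all were lower. Acaa2, the last thiolase step, changed by -1.50 (SE 0.15, adjusted p = 3.68e-07), Eci2 by -1.41 and Acadl, the long-chain acyl-CoA dehydrogenase, by -1.32. Hadh at -0.22 and Echs1 at -0.09 were not called. By lactation day 9, 10 of 13 were lower than on pregnancy day 17, at a median of -1.09 against 0.01 and with 31.9% of all lower, led by Etfb (-1.80, SE 0.14, adjusted p = 4.61e-09), Acaa2 (-1.66) and Eci2 (-1.23). All 13 were lower on lactation day 9 than on pregnancy day 12, at a median of -1.51 against -0.13 over all probe sets, of which 42.4% were lower. The pathway and marker lists were not rerun under the alternative scalings. Setting ribosomal medians equal shifted the median of all differences by 0.34, 0.42 and 0.44 for lactation days 1, 2 and 9 against pregnancy day 17.

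Genes that feed the shuttle were mixed. Acsl4, a long-chain acyl-CoA synthetase, was higher on pregnancy day 17 than on day 12 by 1.46 (SE 0.34, adjusted p = 0.0019) and lower on lactation day 9 than on pregnancy day 17 by 1.61 (a change of -1.61, adjusted p = 0.000424). Acsl5, another synthetase, changed by -1.09 in the latter comparison (adjusted p = 0.000133). Aldh9a1, an enzyme of carnitine synthesis, changed by -0.67 and -1.04 on lactation days 2 and 9 relative to pregnancy day 17 (adjusted p = 0.0188 and 0.000514). Slc22a5, the carnitine transporter of the plasma membrane, was higher by 0.37 and 0.28 (adjusted p = 0.011 and 0.0358), at a level of 4.33 to 4.42 that is just above the filter line. Its means on pregnancy days 12 and 17 were 4.17 and 4.04, below that line, so it entered the test only through lactation groups.

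The genes around acetyl-CoA separated widely in lactation. Acot1, a cytosolic acyl-CoA thioesterase, changed by -4.23 on lactation day 2 and by -4.62 on day 9 relative to pregnancy day 17 (SE 0.23 for both, adjusted p = 2.16e-10 and 1.58e-11). Slc25a1, the carrier that exports citrate for fatty acid synthesis, was higher by 2.65 and 2.14 (adjusted p = 2.57e-07 and 1.42e-06). Cs, citrate synthase, was higher by 1.18 at both (adjusted p = 1.51e-07 and 5.02e-08). None of Mlycd, Prkab1 and Prkag1, which act on malonyl-CoA or its synthesis, was called on lactation day 9 against pregnancy day 17, at 0.13, -0.22 and 0.33, while Prkab1 was lower on pregnancy day 17 than on day 12 by 0.59 (a change of -0.59, adjusted p = 0.00925). Of the regulators, Rxra was higher on pregnancy day 17 than on day 12 by 0.89 (adjusted p = 0.000603) and Esrra was at 0.00 (adjusted p = 0.986). Of the 56 genes in these lists, 32 had a probe set of their own, and none of the other carnitine acyltransferases, Cpt1b, Cpt1c and Crot, was among them.

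**Figure D5:**
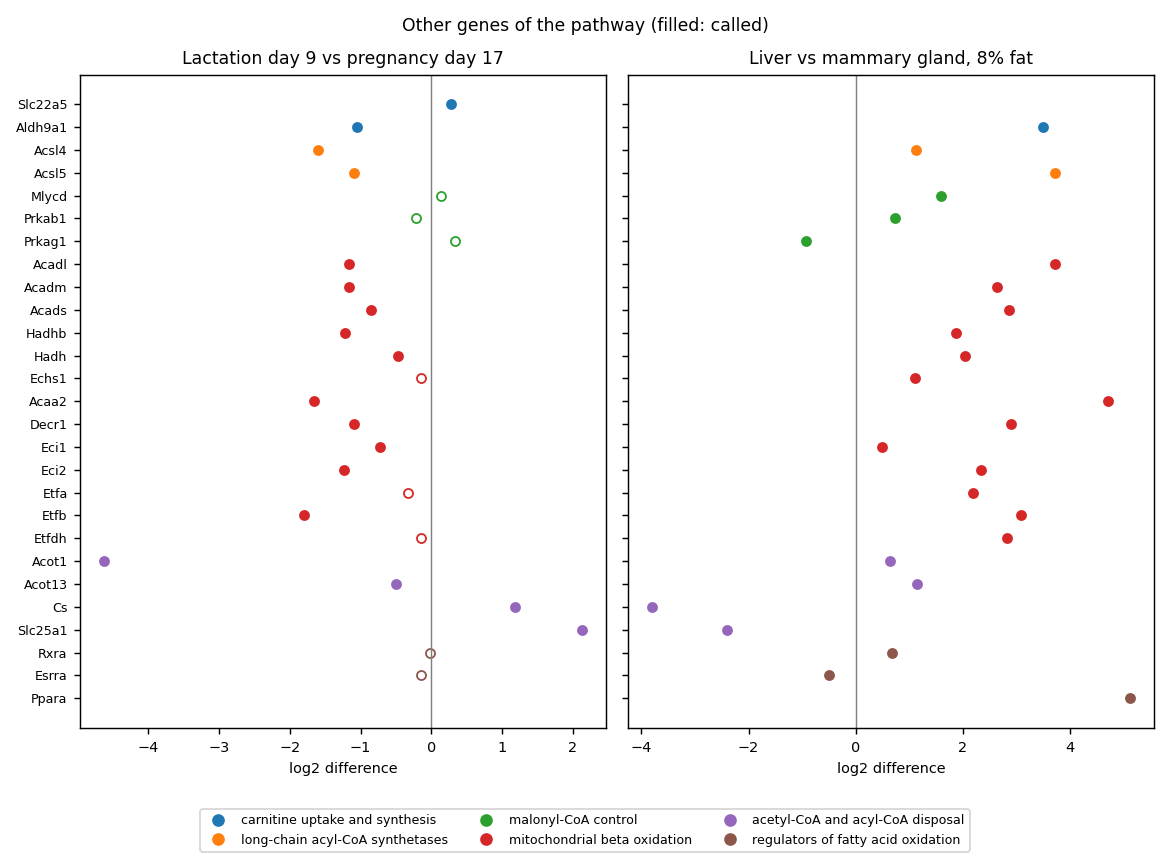
Log2 differences (x axis) of the other pathway genes (y axis), for lactation day 9 against pregnancy day 17 (left) and liver against mammary gland on 8% fat (right); colours give the gene list, and filled points were called. The beta oxidation genes lie at or below 0 on the left, with 10 of 13 called lower, and above 0 on the right, with 13 of 13 called higher; Slc25a1 and Cs lie on the opposite side in both panels.

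Dietary fat was compared in the mammary gland, where the day of the 16% arrays is not given, to see how the diet bears on these genes. Cpt1a read 4.03, 4.09 and 4.01 on 8% fat, 4.06, 3.01 and 4.14 on 16% and 4.20, 4.20 and 3.61 on 40%. All 9 were below the filter line, so Cpt1a was not tested; the difference between 40% and 8% was -0.04, and with no filter its adjusted p was 0.981.

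The levels of the bright Cpt2 probe set were 5.29, 5.95 and 5.36 on 8%, 6.01, 5.36 and 5.44 on 16% and 5.64, 5.74 and 5.23 on 40%. These overlap completely, and the difference between 40% and 8% was 0.01 (95% interval -0.50 to 0.51, adjusted p = 0.999). Crat read 7.24, 7.46 and 7.30 on 8%, 7.51, 7.09 and 7.16 on 16% and 7.30, 7.05 and 7.57 on 40%, with a difference of -0.02 between the outer diets (95% interval -0.37 to 0.32, adjusted p = 0.996). The intervals leave room for changes of up to about that size in either direction.

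Slc25a20 read 4.99, 5.05 and 4.37 on 8%, 5.24, 5.20 and 5.37 on 16% and 5.26, 4.95 and 5.16 on 40%. Replicate 3 on 8% was the lowest of the 9. The 40% diet was 0.32 above 8% (95% interval -0.07 to 0.71, adjusted p = 0.679), and 16% was 0.47 above 8% with no overlap (adjusted p = 0.335), where 21.4% of all probe sets had no overlap. The dim Cpt2 probe set read 4.19, 4.27 and 4.19 on 8%, 5.04, 4.52 and 4.82 on 16% and 4.13, 4.17 and 4.52 on 40%; it was 0.58 higher on 16% than on 8% (adjusted p = 0.227).

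No member was called between any 2 diets. Few probe sets were: 0.0925% of those tested (6) between 40% and 8%, 0.123% (8) between 40% and 16%, and 0% between 16% and 8%, where limma called none although 800 had an unadjusted p under 0.05. Slc25a1, the citrate carrier, was one of the 6, lower on 40% than on 8% by 0.85 (a change of -0.85, SE 0.10, adjusted p = 0.0231). Its call was lost with quantile normalization, where 0 probe sets were called between these diets. A replicate block left 1 call, and leaving out single arrays left 1 to 4. Of the 13 beta oxidation genes none was called, at a median of -0.04, with Echs1 at -0.43 and Acaa2 at -0.34; 538 of all probe sets had an unadjusted p under 0.05 in that comparison.

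The diet groups were also set beside chow-fed glands of lactation day 9. Diet, day and the series the arrays belong to (diets or stages) differ together there and cannot be told apart. Crat was 0.38 higher on 8% fat than on chow (95% interval 0.08 to 0.68, adjusted p = 0.0599) and 0.35 higher on 40% (0.05 to 0.65, adjusted p = 0.0829), neither called; the 3 arrays on 8% lay above all 4 on chow, and 38.6% of all probe sets separated these groups in one direction or the other. The first passed without 16% replicate 1 or 40% replicate 3, at a lowest adjusted p of 0.0404, with no filter (0.0397), with the fit limited to this pair of groups (0.0496) and with array medians set equal (0.56, adjusted p = 0.0174). The second passed with array medians set equal (0.52, adjusted p = 0.0276). Cpt2 differed by 0.27 and 0.28 and Slc25a20 by -0.29 and 0.03 on 8% and 40%, none called. The only member probe set called was the dim one of Cpt2, lower by 0.84 on 8% (a change of -0.84, adjusted p = 0.028) and by 0.78 on 40% (a change of -0.78, adjusted p = 0.0394), where 25.9% and 19.5% of probe sets were called (14.2% and 9.97% lower). Those 2 calls were lost without any one of 5 and 7 arrays, at adjusted p of up to 0.0792 and 0.14.

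Liver gave the highest levels of the 3 import genes. Cpt1a read 8.60, 8.68 and 8.76 in liver on 8% fat, against 4.03, 4.09 and 4.01 in the mammary gland on that diet. The difference was 4.64 (SE 0.09, adjusted p = 2.43e-09), or 24.9-fold against a mammary level below the filter line; with 16 added to every intensity it was 3.71. Slc25a20 read 8.36, 8.50 and 8.64 in liver, higher by 3.70 (SE 0.19, adjusted p = 7.85e-07), or 12.98-fold. The bright Cpt2 probe set read 8.34, 8.26 and 8.09, higher by 2.70 (SE 0.18, adjusted p = 4.1e-06), or 6.49-fold. The dim Cpt2 probe set was below the filter line in both tissues and was not tested. Its difference was -0.57, with an adjusted p of 0.000821 in limma with no filter.

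Crat read 6.23, 6.65 and 6.43 in liver, below the mammary arrays on the same diet. The difference was -0.90 (SE 0.13, adjusted p = 0.000357), or 1.86-fold, and was 0.08 (adjusted p = 0.564) with the ribosomal medians set equal, a scaling that raised the median of all liver to mammary differences by 0.98. Of the 4 probe sets tested, 3 were higher and 1 lower, against 80% of all probe sets called (39.7% higher, 40.3% lower) and 83.1% with no overlap, so a call between these tissues is the rule on this array. The within-array difference between Crat and each import gene was lower in liver, with changes of -5.53 for Cpt1a, -3.59 for Cpt2 and -4.59 for Slc25a20 and no overlap; 3 against 3 arrays cannot go below p = 0.1 in the exact permutation test, which each of them gave.

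Other genes of the pathway were mostly higher in liver too. All 13 beta oxidation genes tested were higher, at a median of 2.64 against -0.01 over all probe sets, of which 39.7% were higher, with Acaa2 at 4.71 (SE 0.11, adjusted p = 8.31e-09), Acadl at 3.71 and Etfb at 3.08. Acsl5 was higher by 3.72, Aldh9a1 by 3.49 and Mlycd, malonyl-CoA decarboxylase, by 1.59 (adjusted p = 1e-08, 3.21e-08 and 4.54e-05). Acsl4 and Prkab1 were higher by 1.12 and 0.74 (adjusted p = 0.000343 and 0.00026). Prkag1 was lower, with a change of -0.93 (adjusted p = 0.00102). Ppara, the nuclear receptor that governs fatty acid oxidation genes in liver, was higher by 5.13 (adjusted p = 7.27e-07), from a mammary level below the filter line. Rxra was higher by 0.68 (adjusted p = 0.000244). Esrra was lower, with a change of -0.49 (adjusted p = 0.0262). Cs and Slc25a1 were lower, with changes of -3.80 and -2.41 (adjusted p = 3.92e-08 and 4.81e-07), and Acot13 was higher by 1.14 (adjusted p = 3.59e-05). The 6 milk genes were all below the filter line in liver. Of the 9 hepatocyte markers, 8 were below it in the mammary gland on 8% fat and 5 on lactation day 9. Alb and Apoa1 were below it in every mammary group, and Cyp2e1 in none.

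Liver, pregnancy day 12 and pregnancy day 17 had the highest means, in that order, for Cpt1a, Cpt2 and Slc25a20, while the lactation and diet groups below them came in a different order for each gene. For Cpt1a none of these 3 overlapped its neighbour and pregnancy day 17 did not overlap lactation day 2, the next; the 6 lactation and diet groups below overlapped one after the other. For Cpt2, pregnancy days 12 and 17 overlapped, and for Slc25a20, pregnancy day 17 and lactation day 2 did. For Crat, pregnancy day 12 was highest at 7.65 ± 0.25 (SD, n = 4), the other 7 mammary groups lay between 6.86 and 7.33 with each overlapping the next, and liver was lowest at 6.44 ± 0.21 (SD, n = 3).

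Over the means of the 8 mammary groups, Cpt1a correlated with Cpt2 at r = 0.98, with Slc25a20 at 0.95 and with Crat at 0.51, and Cpt2 with Slc25a20 at 0.95. Crat correlated with Cpt2 and with Slc25a20 at 0.36. These are descriptions over 8 means that share 2 pregnancy groups and 6 lactation or diet groups. Many other genes were also close to the import genes. Of 6514 probe sets, 740 reached r over 0.9 with Cpt1a, 691 with Cpt2, 728 with Slc25a20 and 26 with Crat. Over 0.95 there were 293, 241, 190 and 4 in that order. The closest to Cpt1a were H2-Ab1 (r = 0.995), a class II antigen-presenting molecule, Arhgdib (0.994) and Gys1 (0.994), the glycogen synthase of muscle and other tissues. Rpp21 (0.995), Cd47 (0.992) and Otud5 (0.991) were closest to Cpt2. Dcaf12 (0.993), Anxa5 (0.992) and Rbm42 (0.992) were closest to Slc25a20. Mtarc2 (0.971), Pafah1b3 (0.970) and Pigs (0.967) were closest to Crat, and Nt5c3b, Usp29 and Limd2 (all 0.99) to the dim Cpt2 probe set.

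The arrays were alike in brightness, with medians of 16.1 to 21.5 in intensity, and no 2 arrays of a group held identical values. By correlation, lactation day 1 replicate 1 and lactation day 9 replicate 1 stood farthest from the rest of their groups, at r = 0.981 and 0.983. The next was 40% fat replicate 3, at r = 0.9847. The scaling of the arrays moved the share of higher among called probe sets. From pregnancy day 12 to 17 it was 40.7%, and 53.5% with ribosomal medians set equal; from pregnancy day 17 to lactation day 1 it was 40.0% and 90.6%, to lactation day 2 51.0% and 85.7%, and to lactation day 9 50.3% and 76.9%. From pregnancy day 12 to lactation day 9 it was 45.4% and 68.8%, and in liver against mammary gland 49.6% and 89.8%. With array medians set equal it was 27.2% and 26.4% for lactation days 2 and 9 against pregnancy day 17. The falls of Cpt1a and Cpt2 from pregnancy day 17 to lactation day 1 kept their direction and call under each of these scalings.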

How the data were processed

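The deposited table gives 1 intensity per probe set and array on a linear scale, for 12488 probe sets in 32 arrays. The authors made these values with GCRMA, per the submitters' processing notes. GCRMA subtracts a background modelled on the bases of each probe, equalizes the distributions of the arrays and fits 1 value per probe set. The version and the set of arrays it was run on were not given in the sources used here. Biotinylated cRNA was hybridised. The values were floored at 1 (208 values lay below) and taken to log2, with no further normalization. The number of arrays per group, 3 or 4, limits the precision.

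The 66 control probe sets were left out. Genes came from the array's annotation table: 10855 probe sets had 1 gene, 396 several and 1237 none, and 10839 were matched to RefSeq by Entrez ID with 0 symbols changed. A gene with several probe sets is represented by the one with the highest mean over all 32 arrays.

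limma 3.58.1 in R 4.3.3 (lmFit, eBayes) was run in 4 fits: the 5 chow stages (20 arrays), the 3 diets (9), lactation day 9 with the diets (13), and both tissues on 8% fat (6). Liver and mammary arrays on 8% fat can come from the same dams; no label links them, and they were treated as independent. The code was tested on simulated data. Replicate numbers are shared by the groups but did not pair the arrays: same-numbered arrays of 2 groups deviated together at r from -0.22 to 0.26.

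Members, gene lists and tests were chosen with earlier results of these data known. From each pathway list the text names up to 3 called and 2 uncalled genes with the largest change, in 5 comparisons; the genes most alike were the 3 with the highest Pearson r over the 8 mammary group means. Alternatives were no filter, a filter at the 75th percentile, log2(intensity + 16), quantile normalization, equal array medians, equal medians of the 22 ribosomal protein probe sets, an intensity trend in eBayes, a replicate block, the compared groups only, and each array left out in turn.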

Additional observations from a re-analysis of the deposited data

Results flagged for a closer look

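On pregnancy day 17, the bright Cpt2 probe set read 6.96 in replicate 4, while the other 3 arrays lay within 7.14 to 7.15. The gap to the nearest array took up 0.93 of the range of the group, above Dixon's 95% critical value for 4 arrays. It was the only one of 30 groups of 4 member values that stood out so, and chance alone flags about 1 in 20. The gap of about 0.18 on the log2 scale is small beside the fall of Cpt2 from pregnancy day 17 to lactation day 1 (a change of -1.37). Leaving out any one array kept that change between -1.48 and -1.26.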

How the results depend on the processing

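Of 59 tested member changes, 25 were called, and 18 of these kept direction and call in every alternative run on them, each left-out array included. This holds for the falls of Cpt1a and Cpt2 (bright probe set) from pregnancy day 17 to lactation day 1. Their ranges over the alternatives were -2.09 to -1.36 and -1.42 to -1.03. The calls lost were Slc25a20 on lactation day 1 and 2, the dim Cpt2 probe set on lactation day 2 (0.47 with quantile normalization, adjusted p = 0.0677) and against both diets, and Crat between pregnancy day 12 and lactation day 9. Slc25a20 on lactation day 2 against pregnancy day 17 was -0.46 with quantile normalization (adjusted p = 0.0658), -0.17 with ribosomal medians equal (0.487), and missed without pregnancy day 17 replicate 1 (0.0516). Crat in liver turned to 0.081 with ribosomal medians equal. Of the uncalled changes, 11 passed in some alternative. Ribosomal scaling shifted the median of all differences by 0.34, 0.42 and 0.44 for lactation days 1, 2 and 9 against pregnancy day 17, by 0.52 for lactation day 9 against pregnancy day 12 and by 0.98 for liver. The cause of these changes was not tested.

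Counts of probe sets called moved as follows. With no filter they were 6873 (pregnancy day 17 against 12), 7676, 9266 (lactation days 2 and 9 against pregnancy day 17), 10370 (lactation day 9 against pregnancy day 12), 11102 (any stage), 5 (40% against 16%), 5599 (8% against chow) and 10292 (liver). With the 75th percentile filter they were 1890, 2107, 2601, 3085, 3538, 22, 795 and 3368 in that order, and 662 for 40% against chow. With 16 added, 40% against 16% gave 18. Quantile normalization gave 0 for 40% against 8% and 1030 for 8% against chow, and equal array medians gave 2 for 40% against 8%. Ribosomal medians gave 3797 (lactation day 1 against pregnancy day 17), 22 (40% against 16%), 838 and 630 (8% and 40% against chow). The replicate block gave 1, 5, 673 and 574 for 40% against 8%, 40% against 16%, and 8% and 40% against chow, and changed no other count by over 1.5 times; compared groups only gave 1, 13, 1029 and 434. With arrays left out in turn, counts ran from 523 to 1332 (lactation day 2 against 1), 1 to 4 (40% against 8%), 1 to 21 (40% against 16%), 0 to 2 (16% against 8%), 494 to 2399 (8% against chow) and 323 to 2101 (40% against chow). The share of higher calls for 8% and 40% against chow was 45.3% and 48.9%, and 88.5% and 86.3% with array medians equal. Cpt1a in lactation lies near the dim end of the array, which limits the order of its levels there.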
